A study of Mus musculus with 2 samples.

Results

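The vesicular glutamate transporter genes, the transcription factor genes of excitatory forebrain neurons and the neuritin gene were followed in RNA bound to tagged ribosomes from the mouse ventral striatum. The set holds 9 genes that are widely used as markers of glutamatergic neurons: Slc17a6, Slc17a7, Slc17a8, Neurod1, Neurod2, Neurod6, Tbr1, Emx1 and Nrn1. They were found by symbol in both deposited count files, among 32531 named gene symbols, and all 9 were present as rows. The series holds 1 group of 2 libraries, replicates 1 and 2 of the immunopurified fraction of Stard5-TRAP JX5852 mice, in which ribosomal protein L10a (Rpl10a) carries the fluorescent protein EGFP and ribosomes are pulled down with monoclonal antibodies to EGFP. The mice were adult controls and received no treatment. No input RNA, other line or other tissue was analysed here, so levels could be described but enrichment in the tagged cells could not be measured. The labels do not say how the transgene was built, which cells carry the tag, or whether the replicates are different animals. The spread between the libraries may therefore be technical.

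Neurons that release glutamate load it into synaptic vesicles with transporters of the SLC17 family. Slc17a7 (VGLUT1) is the transporter of cortical and hippocampal neurons, Slc17a6 (VGLUT2) that of most thalamic, hypothalamic and brainstem neurons, and Slc17a8 (VGLUT3) is found mainly in neurons that also use another transmitter, among them the cholinergic interneurons of the striatum. The principal neurons of the striatum release GABA, and the glutamate that reaches them comes from axons whose cell bodies lie in the cortex, the thalamus and other regions. Emx1, Tbr1, Neurod1, Neurod2 and Neurod6 encode transcription factors of the developing and adult pallium (cortex, hippocampus and related regions), and Nrn1 encodes neuritin, a membrane-anchored protein induced by neuronal activity.

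The 3 transporter genes carried most of the reads of the set, and their start regions are shown because the levels of these family members are compared below. The sequences are the 250 bases before the RefSeq start of each gene on the build GRCm38.p6, read in the direction of transcription: chr7:51621580-51621829 (plus strand) for Slc17a6, chr7:45163671-45163920 (plus strand) for Slc17a7 and chr10:89621250-89621499 (minus strand) for Slc17a8. Capitals mark each match to the E-box CANNTG, the core motif bound by basic helix-loop-helix factors such as the NeuroD proteins.
Slc17a6: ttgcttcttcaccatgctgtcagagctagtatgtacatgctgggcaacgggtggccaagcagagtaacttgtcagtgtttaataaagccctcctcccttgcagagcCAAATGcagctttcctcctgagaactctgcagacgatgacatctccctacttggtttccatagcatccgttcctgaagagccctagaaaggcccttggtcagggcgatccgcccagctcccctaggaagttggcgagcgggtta
Slc17a7: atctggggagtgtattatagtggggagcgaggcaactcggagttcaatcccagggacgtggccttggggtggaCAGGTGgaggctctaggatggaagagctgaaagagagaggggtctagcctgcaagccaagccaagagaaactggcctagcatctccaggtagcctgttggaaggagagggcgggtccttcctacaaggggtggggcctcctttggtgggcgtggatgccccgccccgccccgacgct
Slc17a8: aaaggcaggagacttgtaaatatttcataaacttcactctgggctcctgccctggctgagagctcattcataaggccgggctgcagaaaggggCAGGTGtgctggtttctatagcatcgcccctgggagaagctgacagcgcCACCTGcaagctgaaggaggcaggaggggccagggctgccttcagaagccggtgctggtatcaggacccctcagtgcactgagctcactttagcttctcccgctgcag
Start regions were given for 8 of the 9 genes, in 10 windows, since Slc17a6 and Slc17a8 have a second start each. Not all of these bases lie outside the gene in the annotation used for exon lengths. There the windows of Tbr1 and Emx1 lie wholly in exons of the gene (250 bases each). That of Neurod1 does so over 115 bases, the first of Slc17a8 over 4 and that of Neurod2 over 3. On either strand, the E-box occurred in 10 of 10 windows, against 66.2% of 32851 windows of all genes, with 3 in Neurod2 and 1 or 2 in the others. The form CAGATG, which is itself an E-box, occurred in 3 of the 10, in Neurod2 and at the second starts of Slc17a6 and Slc17a8, against 14.4% of all windows. The homeodomain core TAATTA, of the kind bound by Emx1, also occurred in 3 of the 10, at both of those second starts and in Tbr1 (2 matches), against 4.84% of all windows. Neither the T-box core GGTGTGA, of the kind bound by Tbr1, nor TATAAA occurred in any of the 10, against 3.33% and 12.4% of all windows. These counts describe letters in a short window and show no binding.

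Depth set the resolution for these genes. The libraries held 25830282 and 29574781 reads in named genes. Detection was set at 1 CPM (counts per 1000000 reads in named genes) or more in both libraries. That level is worth 25.8 reads in replicate 1 and 29.6 reads in replicate 2, and 12374 genes (38.0% of the named symbols) reached it. Markers of spiny neurons, the principal cells of the striatum, were all detected, 12 of 12 with a median of 357 CPM, so the defining genes of the labelled tissue were present. Of the 9 glutamatergic markers, 5 were detected (55.6%), with a median of 2.66 CPM over all 9, and 694 reads in replicate 1 and 1629 reads in replicate 2 belonged to the whole set.

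Slc17a6, on chromosome 7 (ENSMUSG00000030500.6, 51622006 to 51671119, plus strand of GRCm38), was the most abundant member. It had 186 reads in replicate 1, or 7.20 CPM (exact Poisson 95% interval 6.20 to 8.31), and 598 reads in replicate 2, or 20.2 CPM (18.6 to 21.9). The mean was 13.7 ± 9.21 CPM (SD, n = 2), which placed it above 38.0% of detected genes, and the intervals of the libraries lay apart. Slc17a8, on chromosome 10 (ENSMUSG00000019935.16, 89574020 to 89621253, minus strand), had 172 and 404 reads in replicates 1 and 2. These were 6.66 CPM (5.70 to 7.73) and 13.7 CPM (12.4 to 15.1), with a mean of 10.2 ± 4.95 CPM (SD, n = 2). Slc17a7, on chromosome 7 (ENSMUSG00000070570.5, 45163949 to 45176142, plus strand), was the least abundant of the family's glutamate transporters. Its 80 and 161 reads gave 3.10 CPM (2.46 to 3.85) and 5.44 CPM (4.64 to 6.35), with a mean of 4.27 ± 1.66 CPM (SD, n = 2). All 3 genes stood lower in replicate 1 than in replicate 2. In RNA pooled over cells, fewer cells of a type and less RNA per cell cannot be told apart. Without input RNA, reads of tagged and of untagged cells cannot be told apart either.

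**Figure D1:**
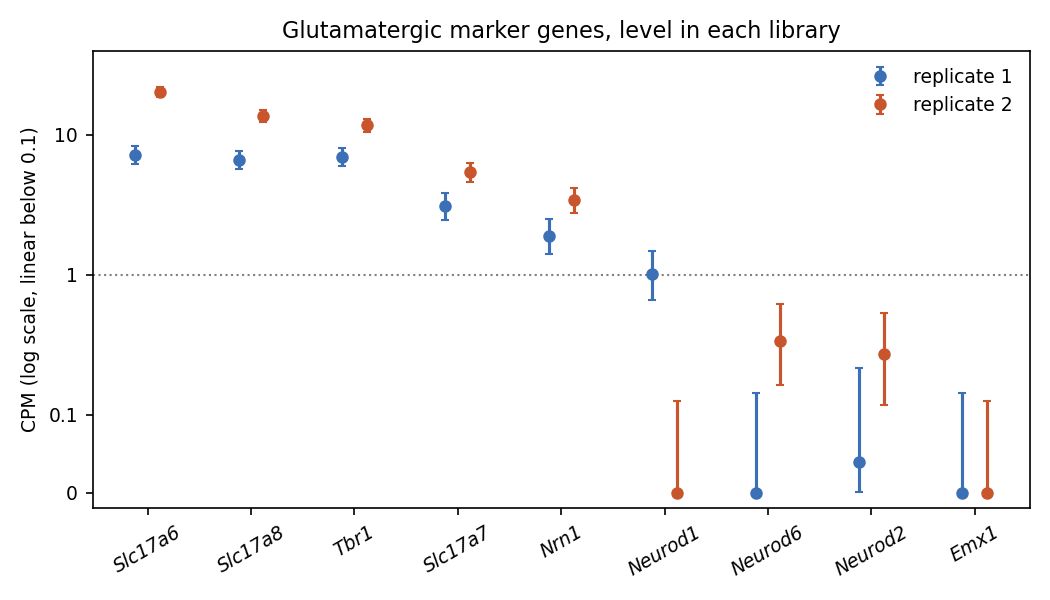
Level of each glutamatergic marker in replicate 1 (blue) and replicate 2 (orange), in CPM on a log scale that is linear below 0.1, with exact Poisson 95% intervals that cover counting error only; the dotted line marks 1 CPM. Slc17a6, Slc17a8, Tbr1, Slc17a7 and Nrn1 lie above the line in both libraries, and Emx1 is at 0 in both.

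Among the transcription factor genes, only Tbr1 was detected in both libraries. Tbr1, a T-box factor of deep-layer cortical and other early-born pallial neurons (chromosome 2, ENSMUSG00000035033.15, 61802930 to 61814114, plus strand), had 180 reads in replicate 1 and 347 in replicate 2. These were 6.97 CPM (5.99 to 8.06) and 11.7 CPM (10.5 to 13.0), with a mean of 9.35 ± 3.37 CPM (SD, n = 2), close to Slc17a8. Emx1, a homeobox factor of pallial progenitors and their excitatory descendants (chromosome 6, ENSMUSG00000033726.8, 85187438 to 85204462, plus strand), had 0 reads in both libraries. The limit that a count of 0 allows, taken as 3 reads, is 0.116 CPM for replicate 1 and 0.101 CPM for replicate 2. Emx1 was thus not detectable at this depth.

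The NeuroD genes, which encode basic helix-loop-helix factors that act during and after the differentiation of excitatory neurons, were at or near the limit of detection. Neurod1 (chromosome 2, ENSMUSG00000034701.9, 79452521 to 79456751, minus strand) had 26 reads in replicate 1, or 1.01 CPM (0.658 to 1.47), and 0 reads in replicate 2. Against the floor of 3 reads in replicate 2, it was at least 9.92-fold higher in replicate 1 with the 26 reads taken as exact. The counting interval of the ratio of replicate 2 over replicate 1 ran from 0 to 0.136. Neurod6 (chromosome 6, ENSMUSG00000037984.9, 55677822 to 55681263, minus strand) went the opposite way, with 0 reads in replicate 1 and 10 reads, or 0.338 CPM (0.162 to 0.622), in replicate 2. Against the floor of 3 reads in replicate 1, it was at least 2.91-fold higher in replicate 2 with the 10 reads taken as exact, and the counting interval of that ratio began at 1.99. Neurod2 (chromosome 11, ENSMUSG00000038255.6, 98325415 to 98329648, minus strand) had 1 read in replicate 1 and 8 reads, or 0.271 CPM (0.117 to 0.533), in replicate 2, a ratio of 7.11 with a counting interval from 0.954 to 316. Neurod1 and Neurod6 thus each had reads in a single library, and not in the same one. The pattern of Neurod1 was uncommon at its depth: of 728 genes with 20 to 32 reads in replicate 1, 46 (6.32%) had 0 reads in replicate 2. That of Neurod6 was frequent: of 727 genes with 8 to 12 reads in replicate 2, 297 (40.9%) had 0 reads in replicate 1. The exons of Neurod1 overlap those of Cerkl over 201 bases (7.37% of its exon bases), and Cerkl had 1 read in replicate 1 and 0 in replicate 2. They also overlap those of Gm26755 over 154 bases (5.64%), a gene not analysed here.

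Nrn1 (chromosome 13, ENSMUSG00000039114.16, 36725361 to 36735131, minus strand) had 49 reads in replicate 1, or 1.90 CPM (1.40 to 2.51), and 101 reads in replicate 2, or 3.42 CPM (2.78 to 4.15). Its mean was 2.66 ± 1.07 CPM (SD, n = 2), the lowest of the detected members. Of its 2249 exon bases, 501 (22.3%) overlap exons of Fars2, the gene of a mitochondrial aminoacyl-tRNA synthetase on the opposite strand. Fars2 had 242 and 245 reads in replicates 1 and 2, and without a stated strand setting the reads of the shared stretch cannot be assigned to either gene. Its paralogue Nrn1l, known for a similar role, had 14 and 16 reads, a mean of 0.541 CPM.

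The members were checked for shared sequence that could pass reads between them. Of all 50-base windows in their annotated transcripts, 0 were found by exact match in the transcripts of another member. At this window length the paralogous transporters and the NeuroD genes could thus be told apart. Near matches with mismatches were not searched. Windows found in any other gene made up 20.2% of those of Nrn1, all in Fars2, 9.66% of those of Neurod1, 1.29% of those of Slc17a8, 0.146% of those of Tbr1 and 0% of those of the other 5 genes.

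Longer transcripts collect more reads, so levels of different genes were compared as CPM per kilobase of annotated exon. On that scale Slc17a6 stood at 2.54 ± 1.71, Slc17a8 at 2.15 ± 1.05, Tbr1 at 1.70 ± 0.614, Nrn1 at 1.18 ± 0.477 and Slc17a7 at 0.792 ± 0.308 CPM per kilobase (SD, n = 2). The ranges of neighbours in this order overlapped, but all 5 genes were higher in replicate 2, so neighbours were also compared within each library. Within libraries, Tbr1 lay above Nrn1 by 0.54 ± 0.07 and Nrn1 above Slc17a7 by 0.57 ± 0.02 on the log2 scale (SD, n = 2), differences larger than their spread, which were not tested. Slc17a8 lay above Tbr1 by 0.29 ± 0.20 and Slc17a6 above Slc17a8 by 0.15 ± 0.32, the last within the spread. Slc17a8 lay above Slc17a6 in replicate 1, at 1.41 against 1.33 CPM per kilobase, and below it in replicate 2, at 2.89 against 3.75. The order of Slc17a8, Tbr1, Nrn1 and Slc17a7 was the same within each library. By CPM without regard to length, Slc17a7 stood above Nrn1. Neurod1 at 0.184, Neurod6 at 0.0786 and Neurod2 at 0.0492 CPM per kilobase lay below these 5 in both libraries. The median of the 11465 detected genes with an exon length was 5.31 CPM per kilobase, above all 9 members, and Slc17a6 exceeded 30.5% of those genes.

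The genes for loading GABA and acetylcholine gave the scale of these levels. Slc32a1, the vesicular GABA transporter gene, was at 38.6 and 41.7 CPM per kilobase in replicates 1 and 2, and Gad2, which encodes a GABA-synthesising enzyme, at 464 and 543. Slc18a3, the vesicular acetylcholine transporter gene, was at 0.834 and 1.89 CPM per kilobase. Slc17a6 reached 1.33 and 3.75 on the same scale, so it stood below these GABA genes and above Slc18a3 in both libraries. It stood below the cholinergic genes Chat, at 2.67 and 4.63, and Slc5a7, at 8.94 and 11.4 CPM per kilobase. In reads, Slc32a1 had 6.36 times as many as the 3 glutamate transporter genes together in replicate 1 and 2.97 times as many in replicate 2. Of the reads of all 4 transporters, the glutamate transporter genes therefore held 13.6% in replicate 1 (95% interval by the exact Clopper-Pearson method 12.4 to 14.8). They held 25.2% (24.0 to 26.5) in replicate 2, and per kilobase the shares were 7.92% and 15.5%. The share differed between the libraries beyond counting error (2-sided exact Fisher test, p = 2.4e-37, adjusted p = 1.2e-36 over 5 read shares).

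**Figure D2:**
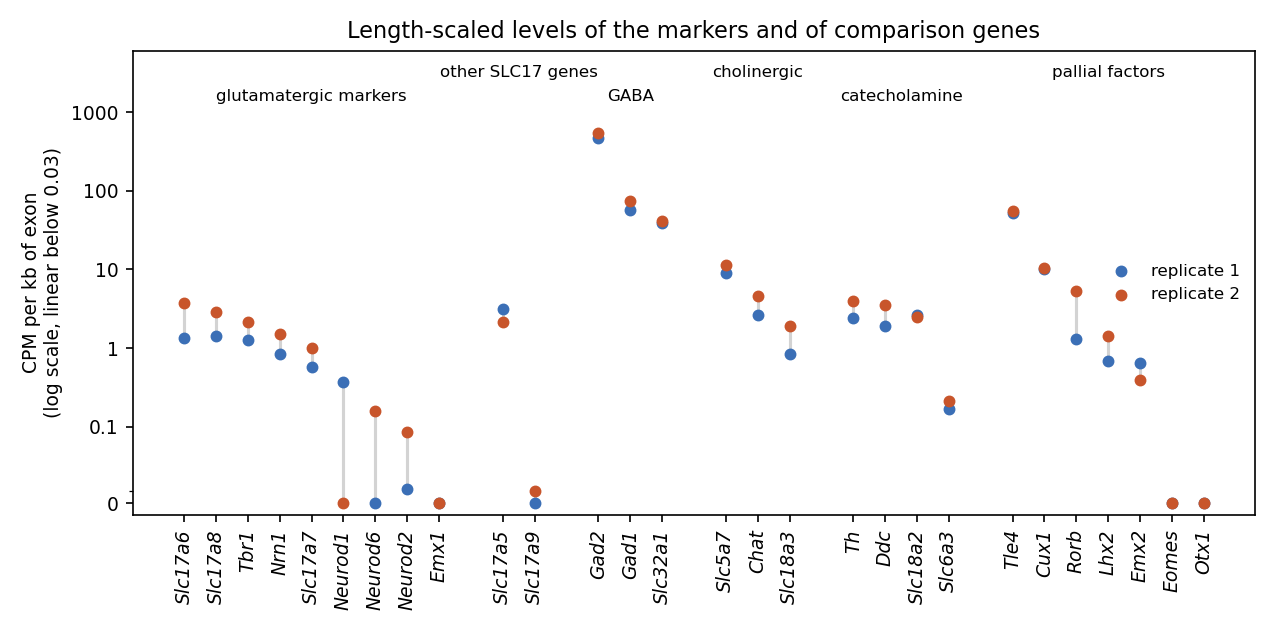
CPM per kilobase of exon in replicate 1 (blue) and replicate 2 (orange) for the glutamatergic markers and for members of 5 other gene groups, on a log scale that is linear below 0.03; grey lines join the libraries. Slc17a6 lies between 1.33 and 3.75, while Slc32a1 lies between 38.6 and 41.7 and Gad2 between 464 and 543.

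Within the transporter family the balance moved towards Slc17a6 in replicate 2. Of the reads of Slc17a6 and Slc17a7 together, Slc17a6 had 69.9% (64.0 to 75.4) in replicate 1 and 78.8% (75.7 to 81.6) in replicate 2. The mean share was 74.4% ± 6.27 (SD, n = 2) and the libraries differed (exact Fisher test, adjusted p = 0.0106). Of the reads of the whole set of 9 genes, Slc17a6 took 26.8% and 36.7% in replicates 1 and 2, Slc17a8 24.8% in each, and Tbr1 25.9% and 21.3%. Of the reads of all 3 glutamate transporter genes, Slc17a8 had 39.3% (34.7 to 44.0) in replicate 1 and 34.7% (32 to 37.6) in replicate 2. These intervals overlapped and the difference did not pass the test (exact Fisher test, p = 0.102, adjusted p = 0.17). Of the reads of Slc17a8 and Chat, the choline acetyltransferase gene of cholinergic neurons, Slc17a8 had 34.7% (30.5 to 39.0) and 38.5% (35.6 to 41.6) in replicates 1 and 2, a mean of 36.6% ± 2.74 (SD, n = 2). No difference of that share was detectable at this depth (exact Fisher test, p = 0.143, adjusted p = 0.179). Per kilobase, Chat stood at 3.65 ± 1.39 and Slc17a8 at 2.15 ± 1.05 CPM per kilobase (SD, n = 2). For Neurod2 and Neurod6, the share of Neurod2 rested on 1 of 1 read in replicate 1 and 8 of 18 reads in replicate 2 (44.4%, 21.5 to 69.2; exact Fisher test, p = 0.474), too few for a comparison.

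**Figure D3:**
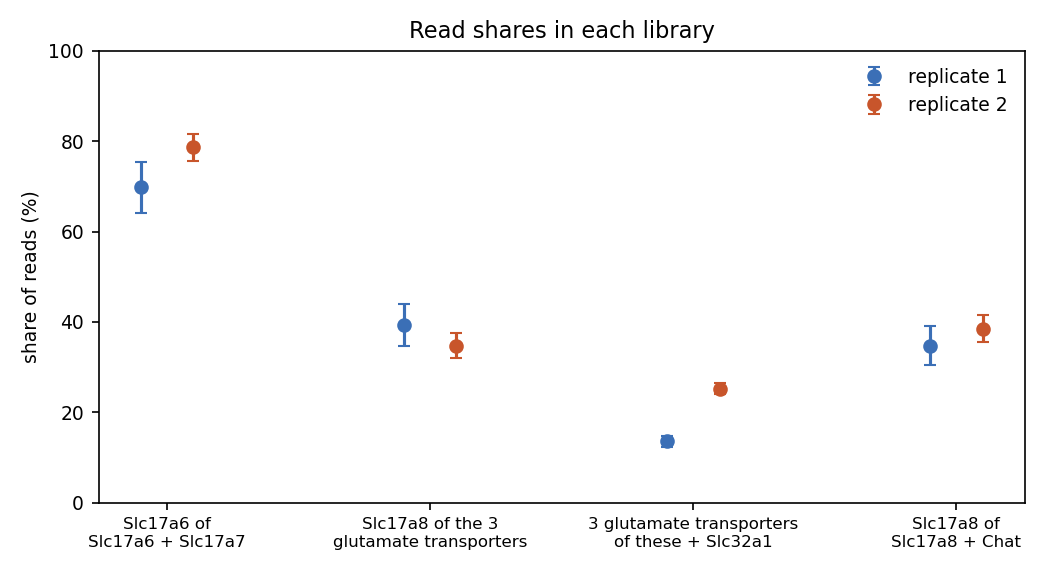
Share of reads, in percent, held by the first-named gene or genes in replicate 1 (blue) and replicate 2 (orange), with exact Clopper-Pearson 95% intervals that cover counting error only. The share of the 3 glutamate transporter genes against Slc32a1 is 13.6% and 25.2%, with intervals that lie apart, while the intervals of Slc17a8 against Chat overlap.

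Between the libraries, every detected member was higher in replicate 2. For each detected gene, an exact binomial test (2-sided) set its reads in one library against the other, after scaling by the trimmed mean of M-values. A call needed a Benjamini-Hochberg adjusted p below 0.05 over all 12374 genes and at least a 2-fold ratio. Such a call tells these libraries apart, which belong to a single group, and it allows for counting error alone. Slc17a6 was called, with a log2 ratio of 1.52 (replicate 2 over replicate 1, exact binomial test, adjusted p = 1.7e-40), as was Slc17a8, with 1.06 (adjusted p = 1.5e-16), which fell to 0.96 and below 2-fold with a pseudocount of 1 CPM. Nrn1 had a log2 ratio of 0.87 (adjusted p = 0.00062, exact binomial test), Slc17a7 0.84 (adjusted p = 2.4e-05) and Tbr1 0.78 (adjusted p = 5.2e-09), which did not reach 2-fold. Thus 2 of the 5 detected members were called as higher in replicate 2, against 9.57% of all genes tested, and 0 as higher in replicate 1, against 7.78%. In either direction 17.4% of all genes were called. At 1.5-fold, 5 of 5 were called, against 38.3% of all genes, and with the adjusted p alone also 5 of 5, against 78.9%. The median log2 ratio was 0.87 over the 5 members and -0.0024 over all genes tested, of which 49.8% had a ratio above 0. With no filter on low counts, 4 of the 8 members that had reads were called, against 30.6% of 18929 genes. The added calls were Neurod1, higher in replicate 1, and Neurod6, higher in replicate 2, so over the whole set the direction was not uniform.

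**Figure D4:**
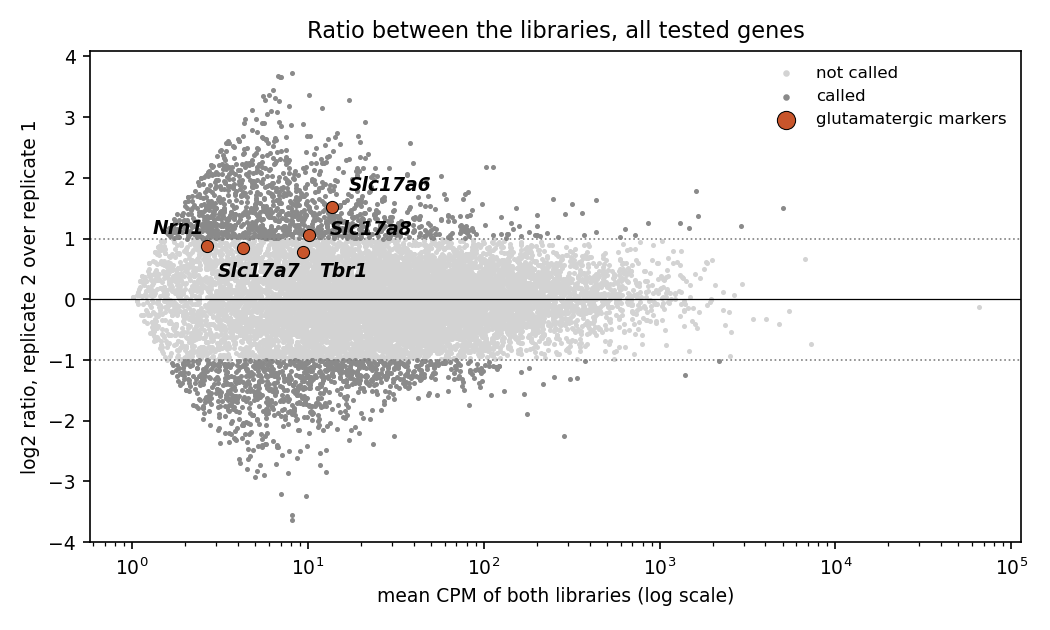
Log2 ratio of replicate 2 over replicate 1 against mean CPM (log scale) for the 12374 tested genes, with called genes in dark grey, other genes in light grey and the 5 detected glutamatergic markers in orange; dotted lines mark 2-fold. The markers lie between 0.78 and 1.52, with Slc17a6 and Slc17a8 above the 2-fold line.

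Several marker lists of other cells moved the same way between the libraries, and their counts are to be read against the 9.57% of all genes called as higher in replicate 2 and the 49.8% with a ratio above 0. Of 8 astrocyte markers, 8 had a ratio above 0 and 6 were called as higher in replicate 2, with summed levels of 910 and 3032 CPM in replicates 1 and 2 and no member at 0. Of 8 oligodendrocyte markers, 8 had a ratio above 0 and 3 were called, and their sum was 853 and 1330 CPM. The nuclear RNAs Malat1, Meg3, Snhg11 and Neat1 were all called as higher in replicate 2, summing to 3810 and 10487 CPM. Reads outside annotated exons made up 22.8% and 31.0% of all counted reads, lines without a gene included. Reads that did not align uniquely made up 27.9% and 13.6%. Both are shares of the same total, so the fall in the second by itself raises the first. Of detected genes, ratios lay above 0 for 4 of 4 GABA interneuron, 4 of 4 GABA transmission and 4 of 5 cholinergic genes. The GABA interneuron list holds 7 genes, and the filter left out Pvalb and Cck, which were lower in replicate 2. Pvalb was at 2.25 and 0.507 CPM and Cck at 4.03 and 0.473 CPM in replicates 1 and 2. Over detected genes, the median log2 ratios of these lists were 0.52, 0.32 and 0.38, with Slc18a3 called as higher in replicate 2 and Isl1 in replicate 1. The sum of the 12 spiny neuron markers went the opposite way, at 8238 and 6150 CPM, with 1 ratio above 0. Of the 12, 1 was called as higher in replicate 1, against 7.78% of all genes tested. The 7 microglial markers summed to 185 and 133 CPM, with 0 ratios above 0 and 1 called as higher in replicate 1. The 4 markers of oligodendrocyte precursors summed to 60 and 145 CPM. Of the 3 detected, 3 had a ratio above 0 and 1 was called as higher in replicate 2. The 6 endothelial and mural markers summed to 30.4 and 47.1 CPM. Of those 6, 4 were detected, 2 with a ratio above 0, and the endothelial adhesion gene Pecam1 was called as higher in replicate 1 with a log2 ratio of -1.17. Pdgfrb, a pericyte receptor gene below detection in replicate 1, was at 0.968 and 10.1 CPM. The summed level of the 9 glutamatergic markers was 26.9 and 55.1 CPM. The part of these other changes in the ratios of Slc17a6, Slc17a8 and the other members was not tested.

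**Figure D5:**
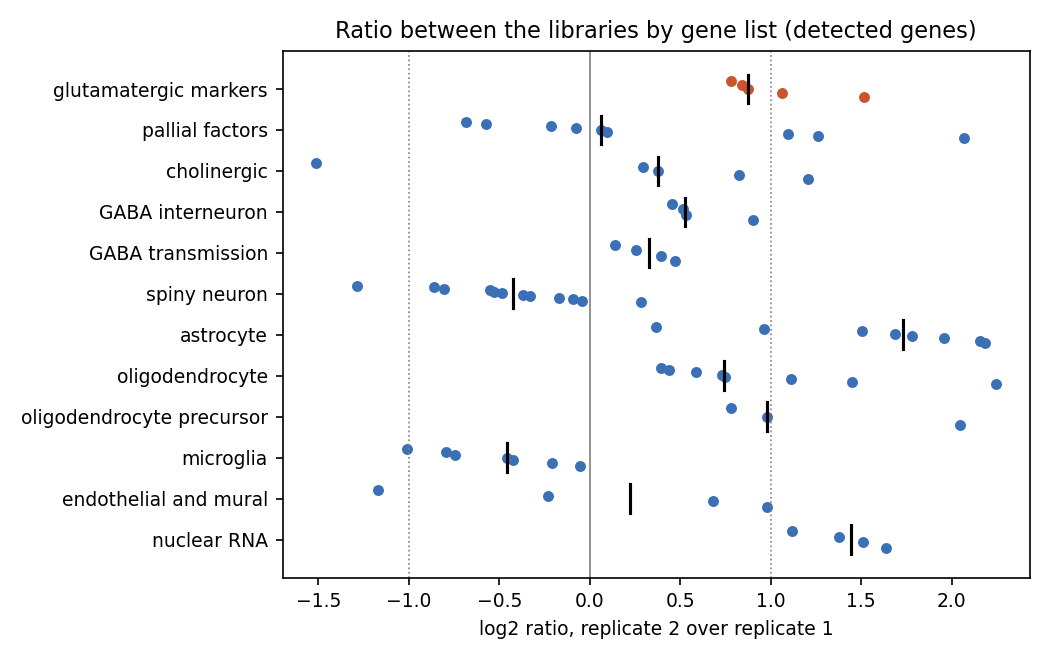
Log2 ratio of replicate 2 over replicate 1 for the detected genes (points) of 12 gene lists, with the median of each list as a black bar and dotted lines at 2-fold. The 5 glutamatergic markers lie between 0.78 and 1.52, the astrocyte median is 1.73 and the spiny neuron median is -0.43.

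In the wider families of the members, most genes had few or no reads. Of the other 6 SLC17 genes, 4 had 0 reads in both libraries. Slc17a5, the lysosomal sialic acid transporter gene, was at 2.63 ± 0.68 CPM per kilobase (SD, n = 2), and the vesicular nucleotide transporter gene Slc17a9 had a single read in replicate 2. Of 10 other proneural and neuronal basic helix-loop-helix genes, 6 had 0 reads in both libraries, among them Neurod4, Neurog1 and Neurog2. The E proteins, the broadly expressed partners with which NeuroD factors bind DNA, were present, with Tcf4 at 159 ± 43.3, Tcf12 at 79.7 ± 27.6 and Tcf3 at 6.87 ± 2.43 CPM (SD, n = 2). The partner genes were thus detected in both libraries, which Neurod1, Neurod2 and Neurod6 were not.

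Among 13 further pallial transcription factor genes, 9 were detected, and 3 of them were called, all as higher in replicate 2, against 9.57% of all genes tested. Of the 9, 5 had a ratio above 0. Among the highest were Tle4 at 309 ± 10.6, Cux1 at 203 ± 3.73 and Rorb at 36.7 ± 31.6 CPM (SD, n = 2), genes also known outside the cortex. Rorb was called with a log2 ratio of 2.07, at 14.4 and 59.1 CPM in replicates 1 and 2, Pax6 with 1.26 and Lhx2 with 1.10. Eomes, the T-box paralogue of Tbr1 in intermediate progenitors, and Otx1 had 0 reads in both libraries, as Emx1 did. Emx2, the homeobox paralogue of Emx1, was at 1.56 ± 0.532 CPM. Fezf2, a factor gene of subcerebral projection neurons, had 10 and 11 reads, below detection in both libraries.

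For Slc17a6, genes of its thalamic, hypothalamic and midbrain home regions were set beside it. Of 16 such genes 5 were detected, against 38.0% of the named symbols. Of these 5, 0 were called, against 17.4% of all genes tested in either direction, too few genes for a contrast with Slc17a6. Rora stood at 95.6 ± 28.4, Tcf7l2 at 32.1 ± 9.44, Ntng1 at 20.5 ± 3.02, Prkcd at 8.70 ± 1.44 and Lef1 at 2.40 ± 0.331 CPM (SD, n = 2). Which cells the reads of these genes came from was not tested. Region-specific factor genes, among them Gbx2, Shox2, Barhl1, Sim1, Otp and Lmx1b, had 0 reads in both libraries. Lmx1a (25 reads), Foxb1 (8 reads) and Lhx9 (3 reads) had reads in replicate 2 alone, and Barhl2 had 38 and 4 reads. For Slc17a8, genes of cholinergic neurons were set beside it, and 5 of 7 were detected, with Slc5a7, the choline transporter gene, at 57.5 ± 9.87 CPM, Isl1 at 27.4 ± 18.8, Lhx8 at 26.2 ± 3.42 and Chat at 17.2 ± 6.53 CPM (SD, n = 2). The vesicular acetylcholine transporter gene Slc18a3 was called as higher in replicate 2, with a log2 ratio of 1.21, and Isl1 as higher in replicate 1, with -1.51, against 17.4% of all genes called in either direction. Serotonergic genes, of the other main VGLUT3 neurons, were not detected, with Slc6a4 and Fev at 0 reads and Tph2 at 2 and 8 reads. Of the catecholamine genes, Slc18a2 was at 13.5 ± 0.551, Ddc at 12.2 ± 5.14, Th at 7.52 ± 2.47 and Slc6a3 at 0.662 ± 0.115 CPM. Of the 3 detected, 0 were called, against the same 17.4% of all genes.

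For Tbr1, 8 genes of its partners and reported targets were all detected, against 38.0% of the named symbols, with a median of 163 CPM. Whether their levels depend on Tbr1 was not tested. The NMDA receptor gene Grin2b was at 280 ± 66.8 CPM, Cntnap2 at 240 ± 40.9, Tspyl2 at 219 ± 13.1, and the scaffold gene Cask, whose product binds Tbr1, at 179 ± 31.6 CPM (SD, n = 2). Of the 8, Reln and Sox5 were called as higher in replicate 2, against 9.57% of all genes, with log2 ratios of 1.39 and 1.77. Sox5 was also the lowest of these genes, at 22.3 ± 17.0 CPM.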

How the data were processed

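Ribosome-bound RNA of the ventral striatum was sequenced in 2 libraries of 1 group. The authors deposited a raw count per gene symbol for each library, made with STAR 2.0.0e and HTSeq on the mouse build mm10, per the submitters' processing notes. Annotation and strand setting: not given in the sources used here. In each file 6 lines name no gene and were left out; they held 52.5% and 46.6% of all counted reads in replicates 1 and 2. CPM was computed over named genes. Per-library levels carry exact Poisson 95% intervals and shares exact Clopper-Pearson 95% intervals. Both, and the floor of 3 reads, take in counting error alone and treat each read as independent. PCR copies were not told apart by identifiers, so the intervals may be too narrow and the p-values too small. Positions, exon lengths and exon overlaps came from GENCODE M21 (GRCm38), where 23116 symbols matched a single gene, and start regions from RefSeq (GRCm38.p6), where Nrn1 had no entry.

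The libraries were compared across all genes with 1 CPM or more in both by a 2-sided exact binomial test (scipy 1.17.1) with library sizes from edgeR 4.0.16 (TMM) and Benjamini-Hochberg adjustment; the code was checked on data with known changes. The 5 read shares were compared by Fisher's exact test. Alternatives were DESeq2 1.42.0 size factors, other scalings, filters, thresholds, pseudocounts and leaving out a replicate. Named genes were all 9 members and, of each other list, up to 4 with the highest mean CPM, the lowest and every gene called; a gene named outside this rule (those at or near 0 reads among them) was chosen after its value was seen, and a few genes of these lists are not reported here. The members and lists were chosen with earlier results of these data known. P-values set the difference between these 2 libraries against counting error alone and take in no spread between replicates.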

Additional observations from a re-analysis of the deposited data

How the results depend on the processing

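No paired analysis was possible because the series holds a single group of 2 libraries. Scaling by DESeq2 size factors, total reads or the upper quartile kept the direction and the call of all 5 detected members, and moved the median log2 ratio of all genes by less than 0.1. Without a filter beyond 1 read in total, 5796 genes were called, of which 3849 were higher in replicate 2 and 1947 in replicate 1, with 4 markers. At 1.5-fold these were 4737, 2394 and 2343 genes and 5 markers, and with the adjusted p alone 9761, 4833 and 4928 genes and 5 markers. Per kilobase of exon, 3 of the 5 detected markers kept their place in the order by CPM, Slc17a7 and Nrn1 changing places. Leaving out a replicate, the median of the 9 markers ranged from 1.90 to 3.42 CPM, Slc17a6 from 7.20 to 20.2 CPM and the share of the glutamate transporter genes against Slc32a1 from 13.6% to 25.2%, so these values rest on which library is read. The members below about 30 reads, Neurod1, Neurod2, Neurod6 and Emx1, rest on few or no reads. Without the filter, Neurod1 and Neurod6 still differed between the libraries beyond counting error (exact binomial test, adjusted p = 8.3e-09 and 0.0037). Neurod2 did not (exact binomial test, adjusted p = 0.059).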

Other observations

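By distance in log2(CPM + 1) over the 2 libraries, the 3 genes whose levels were most like those of Slc17a6 were Pcdhgb5 (distance 0.00459, at 7.20 and 20.3 CPM), Leprot (0.0325, at 7.20 and 19.7 CPM) and Spry4 (0.0331, at 7.28 and 19.8 CPM). In all, 11 genes lay within 0.1. A likeness over 2 libraries is a description, and Pcdhgb5 shares exons with other genes of its cluster, so its count is uncertain.

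Of 8 genes for glutamate synthesis, uptake and recycling, which serve metabolism and GABA synthesis in other neurons too, 8 were detected, against 38.0% of the named symbols. Of these 8, 0 were called, against 17.4% of all genes tested in either direction, too few genes for a contrast with the called members. The transaminase gene Got1 was at 574 ± 26.5 CPM, the dehydrogenase gene Glud1 at 453 ± 126 and the amino acid transporter gene Slc38a1 at 235 ± 39.4 CPM (SD, n = 2). Gls2 was the lowest at 3.68 ± 1.54 CPM.

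Of 8 genes listed with Nrn1 as its paralogue or as plasticity genes, 6 were detected. Egr1, at 340 ± 207 CPM, was called as higher in replicate 1 with a log2 ratio of -1.30, and the pentraxin gene Nptx2, at 2.78 ± 1.42 CPM, as higher in replicate 2 with 1.11, against 17.4% of all genes called in either direction. Of the 6, 2 had a ratio above 0, and the median log2 ratio was -0.34. Bdnf, below detection in replicate 1, went the opposite way to that median, with 3 and 54 reads (0.116 and 1.83 CPM) in replicates 1 and 2. Homer1 was at 237 ± 29.0, Nptx1 at 29.2 ± 2.74 and Arc at 25.4 ± 6.05 CPM (SD, n = 2), with log2 ratios of -0.22, 0.22 and -0.46. Nr4a1 had a log2 ratio of -0.73, and none of these 4 was called.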
